A study of Mus musculus with 12 samples.

Results

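Chromatin accessibility around 40 mouse nuclear receptor genes was described in non-endothelial stromal cells (SCs) of lymph nodes. The members were the distinct ATAC peaks whose closest protein-coding transcription start site (TSS) belonged to one of these genes. They numbered 179 of 42424 distinct peaks and lay next to 36 of the 40 genes. No peak was assigned to Nr1i3, Nr2e1, Esrrb or Nr5a1. Assignment by distance does not show which gene a peak acts on.

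Cells with the surface profile CD45-CD24-CD31-Pdpn+ were taken from mesenteric lymph nodes (mLN), which drain the gut, or from peripheral nodes (pLN), which drain the skin. The tissue label of the pLN samples calls them both skin-draining and mesenteric, so the node was taken from the sample titles. The donors were BALB/c mice, either kept free of specific pathogens (SPF, 7 to 12 weeks old) or germ-free (GF, derived by cesarean section, 6 to 10 weeks old) with ages as the study's legends give them. A CD90.1 BALB/c line is among the SPF mice that the methods list, without a statement that it gave these samples. Housing cannot be told apart from the way the mice were derived, from age range, or from caging and facility. The methods place SPF mice in ventilated cages in Braunschweig and GF mice in isolators or micro-isolators in Hannover or Braunschweig. Accessibility was read as RPKM, read counts scaled by the authors for peak length and library depth, in 3 libraries each of mLN-SPF, pLN-SPF and mLN-GF and in 2 of pLN-GF. The comparisons ask how accessibility at these genes differs between the nodes (location, mLN minus pLN) and between the housings (SPF minus GF). The study's reporting summary places replicates of its bulk sequencing in independent experiments, at least for a pair of them. Whether each library came from separate animals is not given, so p-values measure the spread between these libraries, part of which may be technical.

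Nuclear receptors are transcription factors that bind DNA as monomers, homodimers or heterodimers and, in many cases, are switched by a small lipophilic ligand. Steroid, thyroid and vitamin D receptors answer to hormones, the PPARs and the liver X and farnesoid X receptors to fatty acids, oxysterols and bile acids, and a set of orphan receptors has no accepted physiological ligand. Retinoid X receptors are the shared heterodimer partners of many of them.

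Libraries held between 2886129 and 10380493 reads in peaks, and the median over nuclear receptor peaks and libraries was 64 reads. The leading principal component over all peaks carried 51.5% of the variance and separated the nodes, and both mLN libraries numbered 2 (-27.4 in SPF and -38.5 in GF) lay nearer the pLN side than the other mLN libraries (-95.6 to -73.5). Of 15 stromal marker genes 11 had a promoter peak, with summed promoter levels of 415.7 to 463.7 RPKM in mLN-SPF and 414.8 to 479.5 RPKM in pLN-SPF. Single promoters within this sum differed in opposite directions. By limma Lum was higher in mLN (1.28 in SPF and 1.55 in GF mice, adjusted p = 0.0164 and 0.00958). Cxcl13 was higher in pLN (-1.28 and -1.31, adjusted p = 0.018 and 0.0234). The stromal genes Pdpn (the sorting marker), Thy1, Ccl19 and Ccl21a had no promoter peak, and Ccl19 and Ccl21a had no peak at all. No promoter peak was assigned to Pecam1 or Cdh5 (endothelium), Ptprc (leukocytes), or any of 4 adipocyte markers. Other endothelial markers (Kdr, Tek, Erg and Sox7) had one, as did Cd24a, which encodes the CD24 sorted against (35.03 RPKM on average). A missing promoter peak thus does not show that a cell type is absent. Summed promoter levels of other lists differed between the nodes. The list of CD34+ SCs (4 of 8 genes with a promoter peak) was at 155.6 to 199.4 RPKM in mLN-SPF and 94.2 to 108.9 RPKM in pLN-SPF, the mesothelial list (only Wt1 of 4) at 48.1 to 58.3 and 9.8 to 18.1 RPKM, and the perivascular list (5 of 6) at 121.5 to 159.6 and 189.9 to 233.2 RPKM. The same lists differed in GF mice in the same direction. Lymphatic endothelial markers (3 of 4 genes, none of them Lyve1) were at 62.5 to 115.2 RPKM in mLN-SPF against 35.9 to 68.5 RPKM in pLN-SPF, and at 74.5 to 104.2 against 43.4 to 78.6 RPKM in GF mice. These ranges overlapped in both housings. Most of the gap lay at Ackr4, with means of 27.92 RPKM in mLN-SPF and 7.85 RPKM in pLN-SPF. Prox1 was at 26.18 and 22.55 RPKM and Flt4 at 29.22 and 23.88 RPKM. For blood endothelial markers (4 of 8) the ranges overlapped in SPF mice (98.1 to 126.0 against 80.5 to 119.7 RPKM) and were apart in GF mice (91.9 to 114.0 against 80.2 to 90.2 RPKM). Over all 34 peaks of that list the median location difference went the other way, at -0.443 in SPF and -0.410 in GF mice on log2(RPKM + 1). Hematopoietic markers (1 of 7) overlapped in both housings, at 27.5 to 45.5 against 34.0 to 40.2 RPKM in SPF mice and 31.4 to 38.3 against 33.3 to 35.0 RPKM in GF mice. A different mix of cells and a change within cells cannot be told apart in these bulk samples, and the part of cell mix in the differences below was not tested.

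At most nuclear receptor peaks no difference between the nodes was called. The called ones were nearly all distal and lay next to 12 of the 36 genes with a peak. In SPF mice 13 of the 179 peaks (7.26%) were differentially accessible regions (DARs, limma adjusted p under 0.05 and at least 2-fold), against 10.8% of all peaks. Of these 5 were higher in mLN, where the background was 6.49%, and 8 in pLN, where it was 4.27%. In GF mice 21 peaks (11.7%) were DARs against 13.2% of all peaks, 12 of them higher in mLN (background 8.55%) and 9 higher in pLN (background 4.62%). In total the share of DARs was thus below that among all peaks in either housing, and for peaks higher in pLN alone (4.47% and 5.03%) it was near the background. Altogether 24 peaks next to 12 genes were DARs in at least 1 housing, 10 of them in both and in the same direction. Libraries of the nodes did not overlap at 55 nuclear receptor peaks in SPF mice (30.7%, against 33.1% of all peaks) and at 94 in GF mice (52.5%, against 48.8%). The median location difference of the 179 peaks was -0.10 in SPF and -0.06 in GF mice on log2(RPKM + 1), with medians near 0 over all peaks.

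The counts depend on single libraries, and in most of the fits given here those over all peaks moved in the same direction. Peaks higher in pLN of SPF mice, 8 of the nuclear receptor peaks and 1813 of all, numbered 16 and 2890 when mLN-SPF replicate 2 was left out, and 16 and 2876 without both mLN libraries numbered 2. Leaving out pLN-SPF replicate 1 gave 4 and 868 such peaks, and leaving out replicate 2 of that group gave 3 and 723. Peaks higher in mLN of SPF mice, 5 and 2754, numbered 3 when any of pLN-SPF replicates 1 and 2 and mLN-SPF replicate 1 was left out (1804, 1567 and 1931 of all peaks). Leaving out mLN-SPF replicate 3 gave 2 and 1556. Without pLN-SPF replicate 3 the counts moved in opposite directions, to 4 and 3273 higher in mLN and 10 and 1564 higher in pLN. In GF mice the count higher in pLN, 9 and 1959, was 0 and 316 without pLN-GF replicate 1, 1 and 385 without pLN-GF replicate 3, 5 and 958 without mLN-GF replicate 3, and 14 and 2656 without both mLN libraries numbered 2. The GF count higher in mLN, 12 and 3629, was 4 and 1999 without pLN-GF replicate 1, and 7 and 2523 without mLN-GF replicate 3. With either pLN-GF library left out, the remaining one is assumed to vary like the other groups.

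**Figure D1:**
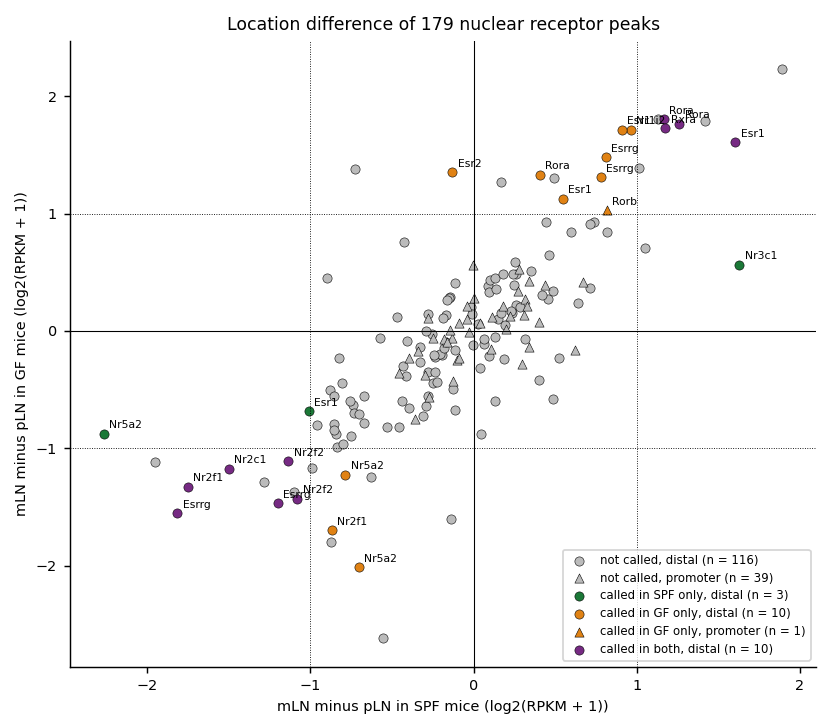
Location difference (mLN minus pLN, log2(RPKM + 1)) of the 179 nuclear receptor peaks in SPF mice (x axis) and GF mice (y axis), with circles for distal and triangles for promoter peaks, filled by DAR status, and dotted lines at 2-fold. The 10 peaks called in both housings lie in the lower left and upper right corners and all are distal, and the sole called promoter is that of Rorb.

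The called peaks lay mostly away from promoters, as did those of the whole table. Of the 24 DARs 11 lay in introns, 11 between genes, 1 in a coding exon and 1 at a promoter (within 1 kb of a TSS), and 10 were over 100 kb from the nearest start of their gene. None of the 40 nuclear receptor promoter peaks was a DAR in SPF mice (background 1.46% of promoter peaks) and 1 was in GF mice (background 1.71%). Of the 139 distal peaks 13 were DARs in SPF mice (9.35%, against 14.8% of all distal peaks) and 20 in GF mice (14.4%, against 18.1%). All 11 DARs higher in pLN had the TSS of some non-coding or other gene closer than that of the receptor once every annotated biotype was allowed, whereas this held for 3 of the 13 higher in mLN. That assignment leaves 105 nuclear receptor peaks, of which none was called higher in pLN in SPF mice (4.27% of all peaks were) and 1 was in GF mice (4.62% of all peaks).

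DNA of 6 of the 24 DARs, 3 in each direction and among the largest SPF changes, is shown as examples chosen after their values were seen. Each is the + strand of GRCm38 (p6), 5′ to 3′, the whole peak or its central 300 bases. Capitals mark exact matches on either strand to AGGTCA, the half-site of many non-steroid receptors, or AGAACA, that of the glucocorticoid, mineralocorticoid and progesterone receptors. Higher in mLN were an intron of Esr1 (chr10:4683079-4683372), an intron of Rora (chr9:69134682-69134981) and a site downstream of Rxra (chr2:27785965-27786264).
Esr1: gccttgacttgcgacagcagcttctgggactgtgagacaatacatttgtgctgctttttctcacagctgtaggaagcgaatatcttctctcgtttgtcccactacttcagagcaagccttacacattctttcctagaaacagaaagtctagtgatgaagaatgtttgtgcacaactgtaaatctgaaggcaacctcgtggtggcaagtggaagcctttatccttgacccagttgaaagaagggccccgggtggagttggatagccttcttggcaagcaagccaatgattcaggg
Rora: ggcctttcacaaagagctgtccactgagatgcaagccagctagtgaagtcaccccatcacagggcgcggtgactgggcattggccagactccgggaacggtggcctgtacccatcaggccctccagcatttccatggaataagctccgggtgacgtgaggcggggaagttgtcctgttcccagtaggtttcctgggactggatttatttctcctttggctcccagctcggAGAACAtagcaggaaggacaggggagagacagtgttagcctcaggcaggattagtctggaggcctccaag
Rxra: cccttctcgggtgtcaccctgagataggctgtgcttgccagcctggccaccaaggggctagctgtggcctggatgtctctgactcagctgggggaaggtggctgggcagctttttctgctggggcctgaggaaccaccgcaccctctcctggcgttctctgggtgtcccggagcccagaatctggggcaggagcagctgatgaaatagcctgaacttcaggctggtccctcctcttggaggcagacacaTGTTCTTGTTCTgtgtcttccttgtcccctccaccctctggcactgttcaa
Higher in pLN were sites upstream of Nr5a2 (chr1:137565852-137566050) and Nr2f1 (chr13:79029871-79030170) and an intron of Esrrg (chr1:188083141-188083440).
Nr5a2: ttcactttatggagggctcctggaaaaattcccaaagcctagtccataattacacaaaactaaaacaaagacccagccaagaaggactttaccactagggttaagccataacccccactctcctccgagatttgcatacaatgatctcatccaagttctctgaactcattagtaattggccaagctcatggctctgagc
Esrrg: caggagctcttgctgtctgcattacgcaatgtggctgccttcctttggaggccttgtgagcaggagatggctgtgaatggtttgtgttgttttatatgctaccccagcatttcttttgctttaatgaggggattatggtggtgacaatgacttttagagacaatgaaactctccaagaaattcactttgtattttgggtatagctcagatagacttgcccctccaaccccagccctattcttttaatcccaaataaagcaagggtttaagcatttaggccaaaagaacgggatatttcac
Nr2f1: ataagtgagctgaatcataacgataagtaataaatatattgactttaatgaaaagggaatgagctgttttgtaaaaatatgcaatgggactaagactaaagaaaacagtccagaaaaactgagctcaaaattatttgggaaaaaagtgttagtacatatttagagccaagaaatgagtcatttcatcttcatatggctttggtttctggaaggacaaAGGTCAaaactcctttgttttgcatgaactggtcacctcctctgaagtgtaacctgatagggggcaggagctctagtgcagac
The Rxra element holds 2 adjacent AGAACA matches on the minus strand, the Rora element holds 1, and the Nr2f1 element holds 1 AGGTCA. The other 3 hold neither half-site.

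Half-sites were about as frequent near nuclear receptor genes as elsewhere. In the 300 bases centred on each peak AGGTCA was present in 17.9% of nuclear receptor windows and 17.2% of all 42342 windows on assembled chromosomes, and AGAACA in 23.5% and 19.6%. No nuclear receptor window held a direct repeat of AGGTCA spaced by 0 to 5 bases or an inverted repeat of either half-site spaced by 3, each of which was found in at most 0.0543% of all windows. AGGTCA preceded by 4 letters A or T, close to the site that ROR and REV-ERB receptors bind, was in 0.559% of nuclear receptor windows and 0.914% of all. The AP-1 site TGANTCA was in 6 of the 13 windows of DARs higher in mLN (46.2%) and in 2 of the 11 higher in pLN (18.2%), against 34.8% and 25.3% of all DARs of those directions. Median GC content was 53.3% in the former and 43% in the latter, and 48% and 46% over all DARs. A match describes letters only and does not show binding.

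No DAR was found at the thyroid hormone receptors. Thra had 3 peaks and Thrb 8, and none was a DAR. The Thra promoter was at 59.6 ± 10.5 RPKM in mLN-SPF and 37.5 ± 8.85 RPKM in pLN-SPF (mean ± SD, n = 3 each), a difference of 0.67 that passed the adjusted p (limma, 0.0327) and stayed under 2-fold. In GF mice it was 0.42 (adjusted p = 0.216). The Thrb promoter leaned to pLN (-0.45, adjusted p = 0.0926).

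Among the receptors of fatty acids, oxysterols, bile acids and xenobiotics, 1 peak was a DAR. Ppara, which drives fatty acid oxidation, and Ppard had 4 peaks each. Nr1h2 and Nr1h3, the liver X receptors that sense oxysterols, had 1 and 2, and Nr1h4, the bile acid receptor FXR, had 4. The single peak assigned to Nr1i2, the xenobiotic receptor PXR, sits in a coding exon of the neighbouring gene Maats1, 10.2 kb upstream of Nr1i2. It read 25.89, 23.29 and 22.03 RPKM in mLN-GF and 9.65 and 4.3 RPKM in pLN-GF, without overlap (difference 1.72 ± 0.43 SE, adjusted p = 0.0169). In SPF mice the difference was 0.96 (adjusted p = 0.112). The GF call was lost without mLN-GF replicate 1 (1.65, adjusted p = 0.0525) and without pLN-GF replicate 3 (1.21, adjusted p = 0.193). Vdr, the vitamin D receptor, had 4 peaks that were all lower in mLN than in pLN by point estimate in both housings, none called.

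Among the circadian receptors, DARs were found at the ROR genes Rora and Rorb, which had 18 and 1 peaks. None was found at the REV-ERB genes Nr1d1 and Nr1d2, which had only 4 and 2, too few for a contrast between the groups. RORs activate and REV-ERBs repress core clock genes through the same DNA element. Rora carried 18 peaks, of which 14 in SPF and 15 in GF mice had a positive location difference, with medians of 0.26 and 0.40. An intronic Rora peak (chr9:69134636-69135026, 154.9 kb before the nearest downstream start of the gene) read 34.33, 32.96 and 36.95 RPKM in mLN-SPF and 10.25, 11.95 and 21.73 RPKM in pLN-SPF. It read 41.17, 32.99 and 42.74 RPKM in mLN-GF and 8.11 and 13.94 RPKM in pLN-GF. All mLN libraries lay above all pLN libraries, with differences of 1.26 ± 0.29 SE in SPF (adjusted p = 0.0121) and 1.77 ± 0.32 SE in GF mice (adjusted p = 0.00279). The SPF call was lost without pLN-SPF replicate 1 (1.06, adjusted p = 0.0568) or 2 (1.16, adjusted p = 0.0531).

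The neighbouring intronic Rora peak (chr9:69154768-69154978) was also higher in mLN. Its libraries were at 47.94, 25.3 and 41.75 RPKM in mLN-SPF, 11.76, 17.12 and 20.14 RPKM in pLN-SPF, 31.27, 31.67 and 34.06 RPKM in mLN-GF, and 9.72 and 7.48 RPKM in pLN-GF. The nodes did not overlap in either housing. The differences were 1.16 ± 0.28 SE in SPF (adjusted p = 0.0151) and 1.80 ± 0.31 SE in GF mice (adjusted p = 0.0021). The SPF call was lost without mLN-SPF replicates 1 (0.98, adjusted p = 0.0643) or 3 (1.08, adjusted p = 0.058) and without pLN-SPF replicate 1 (0.96, adjusted p = 0.0718). A further Rora peak, 30.07 kb upstream of a start, was a DAR in GF mice alone (1.33, adjusted p = 0.0134, against 0.40 in SPF), and not without pLN-GF replicate 1 (0.94, adjusted p = 0.184). The test of the difference between housings gave no call for it (unadjusted p = 0.0499, adjusted p = 1).

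Rorb, a paralogue best known from neurons and retina, had a single peak, over its promoter (chr19:19111120-19111640), and it was the sole promoter called. It read 46.3, 44.52 and 52.76 RPKM in mLN-SPF against 32.79, 24.87 and 23.21 RPKM in pLN-SPF, and 38.49, 37.29 and 50.7 RPKM in mLN-GF against 18.97 and 20.93 RPKM in pLN-GF. Each mLN library was above each pLN library. The difference was 1.03 ± 0.22 SE in GF mice (adjusted p = 0.00635) and 0.82 ± 0.19 SE in SPF mice (adjusted p = 0.0145), the latter short of 2-fold. The GF call was lost with a pseudocount of 5 (0.91) and without mLN-GF replicate 3 (0.89) or pLN-GF replicate 1 (0.96, adjusted p = 0.0678). The 250 bases before the RefSeq start (chr19:19111197-19111446, GRCm38.p6, minus strand), shown as the sole promoter that differed and chosen after its values were seen, hold no half-site of either kind and 66% G or C.
Rorb: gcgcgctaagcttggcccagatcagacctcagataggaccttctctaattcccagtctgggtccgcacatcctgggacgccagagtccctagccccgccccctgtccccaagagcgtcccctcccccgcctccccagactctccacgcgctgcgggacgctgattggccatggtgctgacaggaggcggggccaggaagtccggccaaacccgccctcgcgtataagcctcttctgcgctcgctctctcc
Nr1d1 and Nr1d2, encoding REV-ERB alpha and beta, had 4 and 2 peaks and no DAR. The Nr1d2 promoter was among the most open of the family, at 153 ± 19.8 RPKM in mLN-SPF and 116 ± 11 RPKM in pLN-SPF (n = 3 each, difference 0.40, adjusted p = 0.144).

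**Figure D2:**
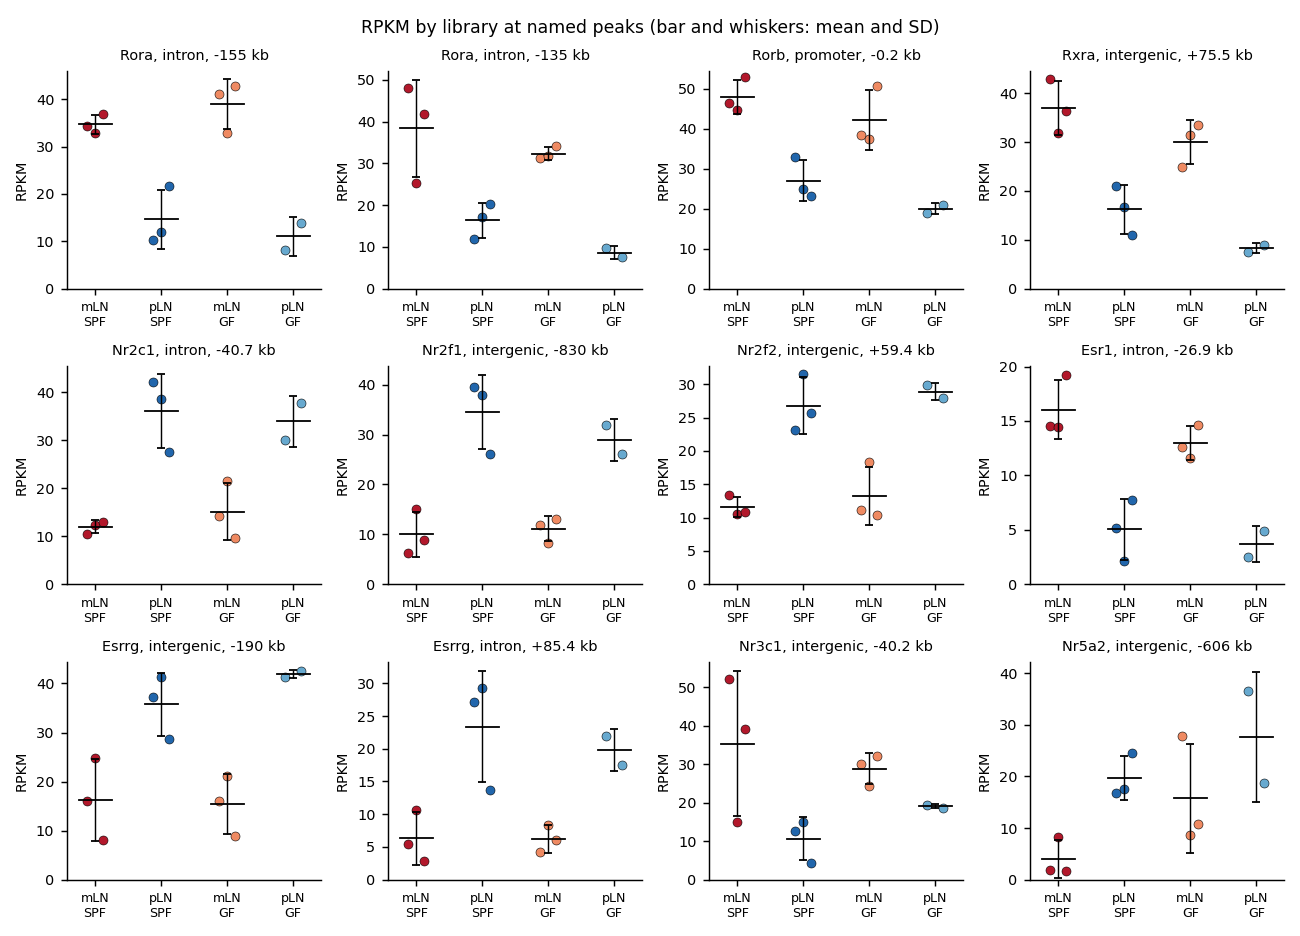
RPKM (y axis) of each library at 12 named peaks, by node and housing (x axis), with the bar and whiskers for mean and SD and the distance to the nearest start of the gene above each panel. The Rora, Rorb, Rxra and Esr1 peaks are higher in mLN and the Nr2c1, Nr2f1, Nr2f2 and Esrrg peaks higher in pLN in both housings, while the Nr3c1 and Nr5a2 peaks were called in SPF mice alone.

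Of the retinoid X receptors Rxra held the sole DAR. Rxra, the main heterodimer partner in most tissues, had 6 peaks, Rxrb 1 and Rxrg 5. A peak 75.53 kb downstream of the nearest Rxra start, beyond the gene (chr2:27785892-27786336) was at 42.84, 31.85 and 36.43 RPKM in mLN-SPF and 21.02, 16.71 and 11.02 RPKM in pLN-SPF. It was at 24.91, 31.43 and 33.51 RPKM in mLN-GF and 7.54 and 9.03 RPKM in pLN-GF. The nodes did not overlap, with differences of 1.18 ± 0.27 SE (adjusted p = 0.0117) in SPF and 1.73 ± 0.30 SE (adjusted p = 0.00203) in GF mice. Without pLN-SPF replicate 3 the SPF difference was 0.94 and no longer 2-fold. Another Rxra peak, 71.66 kb upstream, had a larger estimate the other way (-1.95 in SPF) that missed the threshold (adjusted p = 0.0598). The Rxra promoter itself was at 35.3 ± 10.2 and 39.6 ± 6.67 RPKM in mLN-SPF and pLN-SPF (difference -0.18, adjusted p = 0.649).

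HNF4 and the NR2C and NR2E orphans were sparsely represented. Hnf4a and Hnf4g, endoderm factors, and Nr2e3, a photoreceptor factor, had 1, 1 and 2 peaks and no promoter peak. Nr2c1 and Nr2c2, the testicular receptors TR2 and TR4, had open promoters (34.9 and 67.5 RPKM on average over all libraries) that differed little between the nodes (0.04 and 0.22 in SPF mice). Of the 5 Nr2c1 peaks 4 lie in introns of Fgd6, the gene next door. A called peak among these (chr10:94107216-94107512) read 10.48, 12.4 and 13.05 RPKM in mLN-SPF and 42.1, 38.63 and 27.51 RPKM in pLN-SPF, and 14.22, 21.46 and 9.68 RPKM in mLN-GF and 30.14 and 37.68 RPKM in pLN-GF. Every pLN library was above every mLN library. The differences were -1.50 ± 0.29 SE (adjusted p = 0.0062) in SPF and -1.17 ± 0.33 SE (adjusted p = 0.0263) in GF mice. The SPF call held in all alternative fits, though the peak no longer counts as one of Nr2c1 once every annotated biotype is allowed. The GF call was lost with a pseudocount of 5 (-0.99) and without mLN-GF replicate 1 (-1.16, adjusted p = 0.0599) or 3 (-0.91). It was also lost without pLN-GF replicate 1 (-1.33) or pLN-GF replicate 3 (-1.02).

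By point estimate, the peaks assigned to Nr2f1 and Nr2f2 by distance leaned to pLN. Nr2f1 and Nr2f2 encode COUP-TFI and COUP-TFII, orphan receptors with roles in mesenchyme, nervous system and vein development. Nr2f1 had 12 peaks, of which 11 in SPF and 12 in GF mice were lower in mLN by point estimate, with medians of -0.74 and -0.71. Nr2f2 had 23 peaks, the most of any member, of which 18 and 16 were lower in mLN, with medians of -0.24 and -0.20. Both promoters were open in both nodes and neither difference was called. The Nr2f2 promoter was at 74.7 ± 9.89 RPKM in mLN-SPF and 65.6 ± 14.3 RPKM in pLN-SPF (0.20, adjusted p = 0.511), and the Nr2f1 promoter at 39.2 ± 15.1 and 47.3 ± 4.22 RPKM (-0.34, adjusted p = 0.418). Nr2f6 had a promoter peak only and no DAR.

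The most distant called elements lie in the gene-poor stretch upstream of Nr2f1. A peak 830.3 kb from its start (chr13:79029720-79030320) was at 6.15, 15.01 and 8.8 RPKM in mLN-SPF and 39.54, 38 and 26.1 RPKM in pLN-SPF, and at 11.86, 8.28 and 13.15 RPKM in mLN-GF and 31.96 and 26.02 RPKM in pLN-GF. The nodes did not overlap in either housing. The SPF difference, -1.75 ± 0.33 SE (adjusted p = 0.00527), had the smallest adjusted p of all nuclear receptor peaks in that comparison and was called in every alternative fit. Within 100 kb, or once every annotated biotype was allowed, the peak no longer counts as one of Nr2f1. The GF difference was -1.33 ± 0.37 SE (adjusted p = 0.0259), lost without mLN-GF replicate 2 (-1.15, adjusted p = 0.0631), pLN-GF replicate 1 (-1.18, adjusted p = 0.201) or pLN-GF replicate 3 (-1.47, adjusted p = 0.101). A peak 1330 kb away was a DAR in GF mice (-1.70 ± 0.38 SE, adjusted p = 0.00875) and short of one in SPF mice (-0.87, adjusted p = 0.0999). Without pLN-GF replicate 1 its GF difference was -1.47 (adjusted p = 0.114).

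At Nr2f2 a pair of intergenic peaks was higher in pLN in both housings. The peak 59.4 kb from the nearest start, on the far side of the gene (chr7:70300166-70300878), averaged 11.6 ± 1.53 RPKM in mLN-SPF and 26.8 ± 4.33 RPKM in pLN-SPF (n = 3 each), and 13.3 ± 4.4 in mLN-GF (n = 3) and 28.9 ± 1.3 in pLN-GF (n = 2). Its differences were -1.14 ± 0.28 SE (adjusted p = 0.016) and -1.11 ± 0.31 SE (adjusted p = 0.0263). A pseudocount of 5 took both below 2-fold (-0.93 and -0.92). The SPF call was also lost without pLN-SPF replicate 2 (-1.02, adjusted p = 0.0844), and the GF call without mLN-GF replicate 1 (-1.01, adjusted p = 0.0729), mLN-GF replicate 3 (-0.97, adjusted p = 0.0822), pLN-GF replicate 1 (-1.07, adjusted p = 0.176) or pLN-GF replicate 3 (-1.16, adjusted p = 0.13).

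The other peak lies 364.3 kb upstream (chr7:70730583-70731561) and averaged 24.4 ± 9.46 and 51 ± 9.2 RPKM in mLN-SPF and pLN-SPF and 18.2 ± 7.51 and 47.8 ± 6.47 RPKM in mLN-GF and pLN-GF. Its differences were -1.08 ± 0.32 SE (adjusted p = 0.0361) and -1.43 ± 0.36 SE (adjusted p = 0.0152). In SPF mice a pseudocount of 5 (-0.96) or leaving out either of mLN-SPF replicates 1 (-0.85, adjusted p = 0.131) and 3 (-1.03, adjusted p = 0.0977) or of pLN-SPF replicates 1 (-1.05, adjusted p = 0.107) and 2 (-0.97, adjusted p = 0.131) ended the call. In GF mice leaving out mLN-GF replicate 3 (-1.07, adjusted p = 0.0504), pLN-GF replicate 1 (-1.30, adjusted p = 0.138) or pLN-GF replicate 3 (-1.57, adjusted p = 0.0694) did.

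**Figure D3:**
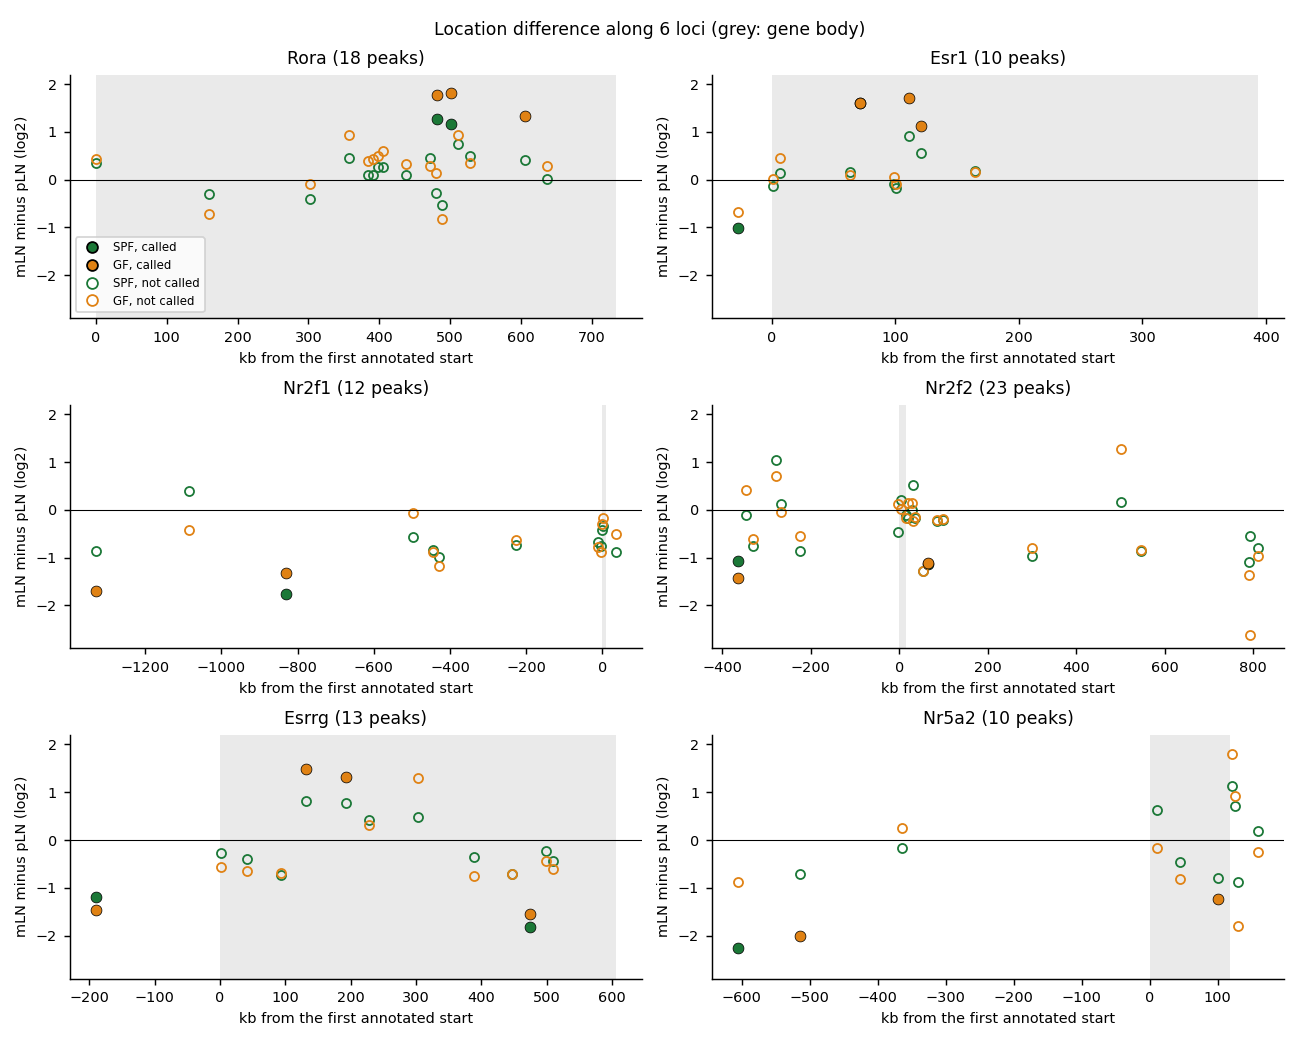
Location difference (mLN minus pLN, log2(RPKM + 1), y axis) of every peak assigned to 6 genes against its distance in kb from the outermost annotated start (x axis), in SPF (green) and GF mice (orange), filled where called, with the gene body in grey. Peaks at Nr2f1 lie below 0 with 1 exception in SPF mice, Rora peaks mostly above it, and Esrrg and Esr1 hold called peaks on both sides.

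Estrogen receptor loci held peaks of both directions. Esr1, encoding estrogen receptor alpha, had 10 peaks. An intronic peak (chr10:4683079-4683372, 26.93 kb before an internal start) was at 14.56, 14.4 and 19.18 RPKM in mLN-SPF and 5.19, 2.17 and 7.78 RPKM in pLN-SPF, and at 12.57, 11.63 and 14.67 RPKM in mLN-GF and 2.54 and 4.88 RPKM in pLN-GF. Each mLN library exceeded each pLN library, at a depth of at most 24 reads per library. The differences were 1.60 ± 0.43 SE in SPF (adjusted p = 0.0234) and 1.61 ± 0.48 SE in GF mice (adjusted p = 0.0345). The SPF call was lost when only the 2 groups were fitted (adjusted p = 0.0526) and without either of mLN-SPF replicates 1 (1.66, adjusted p = 0.0578) and 3 (1.48, adjusted p = 0.0868) or of pLN-SPF replicates 1 (1.68, adjusted p = 0.0584) and 2 (1.20, adjusted p = 0.104). The GF call was lost under quantile normalization (1.24, adjusted p = 0.0625), without both mLN libraries numbered 2 (1.68, adjusted p = 0.0699) and when any GF library was left out (1.24 to 1.97, adjusted p = 0.0547 to 0.272).

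A pair of further intronic Esr1 peaks was higher in mLN of GF mice. At 12.78 kb the difference was 1.72 ± 0.48 SE (adjusted p = 0.0261) and at 22.56 kb 1.13 ± 0.32 SE (adjusted p = 0.0308), against 0.91 and 0.55 in SPF mice, where neither was called. The former was lost without mLN-GF replicate 1 (1.41, adjusted p = 0.0952), mLN-GF replicate 3 (1.57, adjusted p = 0.092) or pLN-GF replicate 1 (1.18, adjusted p = 0.277). The latter was lost with a pseudocount of 5 (0.88), under quantile normalization (0.96), with only the 2 groups fitted (adjusted p = 0.0541), and without mLN-GF replicate 1 (1.01), mLN-GF replicate 3 (1.05), pLN-GF replicate 1 (1.34) or pLN-GF replicate 3 (0.91). Upstream of the gene the order turned: a peak 27.86 kb before the outermost start was lower in mLN-SPF (14.5 ± 3.93 RPKM) than in pLN-SPF (29.9 ± 5.27 RPKM, n = 3 each), a difference of -1.01 ± 0.28 SE (adjusted p = 0.0293). That call was lost with a pseudocount of 5 (-0.85), under quantile normalization (-0.97) and without either of mLN-SPF replicates 1 (-0.96) and 3 (-0.86) or of pLN-SPF replicates 1 (-1.07) and 2 (-0.87). Esr2, encoding estrogen receptor beta, had 3 peaks, of which 1 at 13.9 kb upstream was called in GF mice (1.35 ± 0.36 SE, adjusted p = 0.0204). It was at -0.13 in SPF mice, was not called by limma-voom (adjusted p = 0.0531), and read 0.72 (adjusted p = 0.299) without pLN-GF replicate 1, whose value of 7.99 RPKM was the lowest of all libraries.

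Esrrg, an estrogen-related receptor of energy metabolism that acts without a known natural ligand, had 13 peaks, 4 higher and 9 lower in mLN by point estimate in both housings. An intronic peak (chr1:188083041-188083540) read 5.45, 10.68 and 2.82 RPKM in mLN-SPF and 27.11, 29.32 and 13.73 RPKM in pLN-SPF, and 4.22, 8.39 and 6.11 RPKM in mLN-GF and 22.01 and 17.5 RPKM in pLN-GF. The nodes did not overlap, with differences of -1.82 ± 0.45 SE (adjusted p = 0.0169) and -1.55 ± 0.50 SE (adjusted p = 0.0497). A peak 190.1 kb upstream (chr1:187418271-187419013) read 15.97, 24.78 and 8.06 RPKM in mLN-SPF and 37.25, 41.32 and 28.59 RPKM in pLN-SPF, and 15.98, 21.13 and 8.95 RPKM in mLN-GF and 41.41 and 42.48 RPKM in pLN-GF. Here too the nodes were apart, by -1.20 ± 0.36 SE (adjusted p = 0.0416) and -1.47 ± 0.41 SE (adjusted p = 0.0262). A pair of introns nearer the 5′ end went the other way in GF mice, by 1.48 ± 0.34 SE at 131.8 kb (adjusted p = 0.00971) and 1.31 ± 0.33 SE at 191.8 kb (adjusted p = 0.0152), with 0.81 and 0.78 in SPF mice.

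These Esrrg calls rest on few libraries. The intronic peak higher in pLN was lost in SPF mice without mLN-SPF replicate 3 (-1.42) and without pLN-SPF replicates 1 (-1.68) or 2 (-1.62), with adjusted p = 0.0657 to 0.0798. In GF mice it was lost with a pseudocount of 0.25 (-1.67, adjusted p = 0.0601) and without any of mLN-SPF replicate 1, pLN-SPF replicates 1 and 2, mLN-GF replicates 1 and 3 and both pLN-GF libraries (-1.71 to -1.34, adjusted p = 0.0585 to 0.274). The upstream peak was lost in SPF mice with only the 2 groups fitted (adjusted p = 0.0572) and without mLN-SPF replicates 1 or 3, pLN-SPF replicates 1 or 2, mLN-GF replicate 1 or either pLN-GF library (-1.25 to -0.80, adjusted p = 0.0507 to 0.152). It was lost in GF mice without mLN-GF replicate 3 (-1.15), pLN-GF replicate 1 (-1.49) or pLN-GF replicate 3 (-1.45), with adjusted p = 0.096 to 0.144. Without pLN-GF replicate 1 the peak at 131.8 kb was at 1.08 (adjusted p = 0.146). The peak at 191.8 kb was lost without mLN-GF replicate 1 (1.21), mLN-GF replicate 3 (1.12), pLN-GF replicate 1 (1.12) or pLN-GF replicate 3 (1.50). Esrra, a paralogue, had a strong promoter only (88.7 ± 19.7 RPKM in mLN-SPF and 69.7 ± 8.43 RPKM in pLN-SPF, difference 0.33, adjusted p = 0.261).

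The corticosteroid receptor promoters were open in both nodes and not called. Nr3c2, the mineralocorticoid receptor, had the highest promoter level of the family, at 150 ± 47 RPKM in mLN-SPF and 155 ± 15.5 RPKM in pLN-SPF (n = 3 each, difference -0.10, adjusted p = 0.786). It ranked above 99.4% of genes with a promoter peak. Nr3c1, the glucocorticoid receptor, was at 53.5 ± 8.25 and 46.9 ± 5.65 RPKM (0.18, adjusted p = 0.499). A peak 40.2 kb upstream of Nr3c1 (chr18:39559467-39559773) was a DAR in SPF mice alone. It read 51.96, 14.99 and 39.03 RPKM in mLN-SPF and 12.75, 14.88 and 4.26 RPKM in pLN-SPF, where mLN replicate 2 sat next to the pLN range, and 30.08, 24.3 and 32.19 RPKM in mLN-GF and 19.44 and 18.69 RPKM in pLN-GF. The differences were 1.63 ± 0.45 SE (adjusted p = 0.0267) and 0.56 ± 0.50 SE (adjusted p = 0.496), and the test between housings made no call (unadjusted p = 0.133). The SPF call was lost with only the 2 groups fitted (adjusted p = 0.0671) and without mLN-SPF replicates 1 (1.27, adjusted p = 0.113) or 3 (1.47, adjusted p = 0.0908) and without pLN-SPF replicate 3 (1.13, adjusted p = 0.0756). Pgr, the progesterone receptor, had a weak promoter of 12.7 RPKM on average and a peak 62.52 kb upstream with estimates of 1.89 and 2.23 that missed the threshold (adjusted p = 0.0693 and 0.0552) at 0 to 20 reads per library.

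The NR4A genes, early-response orphan receptors, were open at all their promoters, with no called difference. Nr4a1, Nr4a2 and Nr4a3 promoters averaged 74.8, 49.1 and 98.8 RPKM over all libraries. Their location differences in SPF mice were -0.03, 0.10 and -0.09, and the 95% interval of the Nr4a3 difference extended 0.30 to either side. Across their 11 peaks no DAR was found in either housing.

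NR5A and NR6A receptors act in embryonic, gonadal and endoderm lineages. Nr5a2, encoding LRH-1, had the weakest promoter of all (12.1 RPKM on average) and 10 peaks. A peak 605.5 kb upstream (chr1:137565852-137566050) gave the largest SPF change of any called nuclear receptor peak, at 1 to 39 reads per library. It read 1.96, 8.33 and 1.77 RPKM in mLN-SPF and 16.79, 17.61 and 24.64 RPKM in pLN-SPF, apart by -2.27 ± 0.52 SE (adjusted p = 0.0121), a call made in every alternative fit. Within 100 kb, or once every annotated biotype was allowed, the peak no longer counts as one of Nr5a2. In GF mice the nodes overlapped, at 27.85, 8.59 and 10.83 RPKM in mLN-GF and 36.55 and 18.75 RPKM in pLN-GF (-0.87 ± 0.58 SE, adjusted p = 0.346), and the difference between housings was not called (unadjusted p = 0.0945). A peak 514.7 kb upstream was called in GF mice (-2.02 ± 0.46 SE, adjusted p = 0.0098, against -0.70 in SPF mice), and so was 1 in an intron at 89.45 kb (-1.23 ± 0.30 SE, adjusted p = 0.0152). Both were lost without pLN-GF replicate 1 (-2.06 and -1.12, adjusted p = 0.072 and 0.136) or pLN-GF replicate 3 (-1.97 and -1.33, adjusted p = 0.0814 and 0.0719). Nr6a1 had 4 peaks and no DAR.

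Promoters of 32 receptor genes carried a peak, and for most of them the data bound the location difference. The 95% interval lay wholly within 2-fold for 37 of the 40 promoter peaks in SPF mice and for 33 in GF mice. Average promoter levels ranged from 12.1 RPKM at Nr5a2 to 151.1 RPKM at Nr3c2. Against the strongest promoter peak of every gene, Nr3c2, Nr1d2 and Nr4a3 ranked above the 95th percentile, and Esr1, Esr2, Pgr and Nr5a2 below the 10th. Accessibility is not a measure of transcript level.

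**Figure D4:**
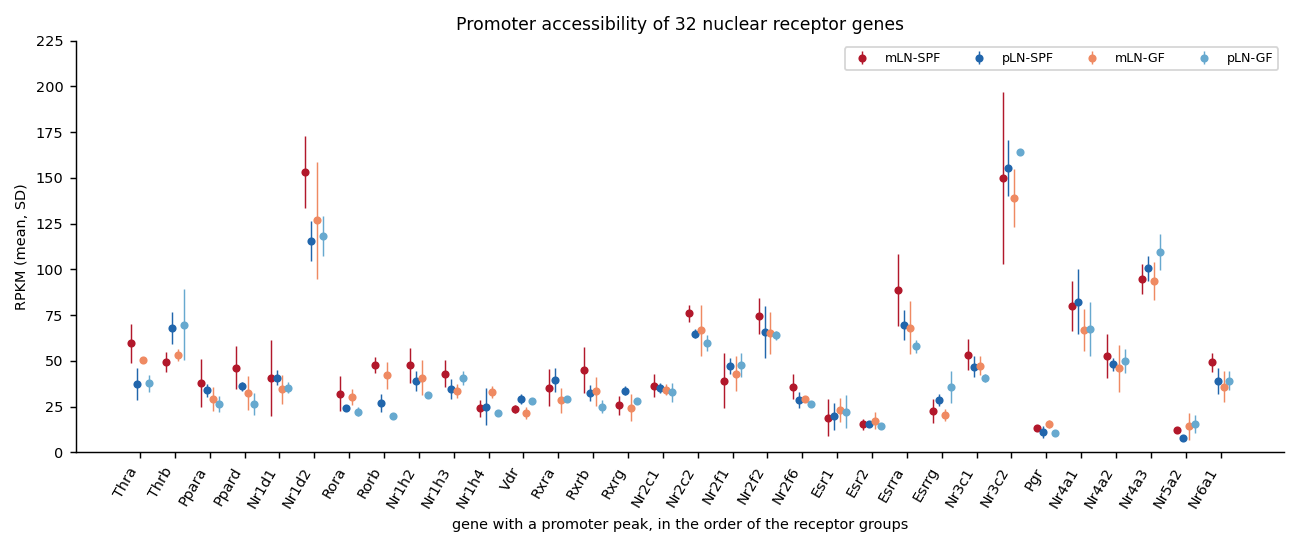
RPKM (y axis, mean and SD) of the strongest promoter peak of 32 nuclear receptor genes (x axis, in the order of the receptor groups) in the 4 groups of 2 or 3 libraries. Levels differ far more between genes, from 12.1 RPKM at Nr5a2 to 151.1 RPKM at Nr3c2, than between nodes or housings of a gene, and Rorb shows the called node difference.

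Housing left no called change at any nuclear receptor peak. By limma none of the 179 peaks was a DAR between SPF and GF mice in mLN (background 0.00236%), in pLN (background 0.00707%) or averaged over the nodes (background 0.066%), and none for the interaction of location and housing (background 0%). At an unadjusted p under 0.05 there were 12, 10, 19 and 5 peaks, or 6.7%, 5.59%, 10.6% and 2.79% of them, against 8.11%, 6.21%, 11.2% and 3.5% of all peaks. By limma-voom 0, 1, 0 and 0 were called, and for housing in pLN that method called 1 peak higher in SPF and 50 higher in GF mice over the whole table. Averaged over nodes, the 95% interval of the housing difference lay within 2-fold for 154 of the 179 peaks. The lowest unadjusted p for the average was at a Vdr intron, 8.88 kb from the start, which read 5.51 ± 1.49 RPKM in mLN-SPF, 6.38 ± 2.65 in pLN-SPF, 11.1 ± 6.81 RPKM in mLN-GF and 30.5 ± 3.77 RPKM in pLN-GF. The averaged difference was -1.43 ± 0.38 SE (adjusted p = 0.207), and in pLN it was -2.16 ± 0.57 SE (adjusted p = 0.373). Next came a peak in a Def6 exon assigned to Ppard (0.60, adjusted p = 0.225) and the Rxra peak at 75.53 kb (0.58, adjusted p = 0.323). In mLN the lowest p values fell at Nr5a2 605.5 kb upstream (-1.81, adjusted p = 0.432), Nr2c1 52.04 kb upstream (-1.43, adjusted p = 0.466) and a Rora intron at 159.7 kb (0.66, adjusted p = 0.494). For the interaction they fell at Ppara 26.09 kb upstream (-1.19), Esr2 13.9 kb upstream (-1.48) and Nr2f2 at 24.83 kb (0.75), all with an adjusted p of 1. The median 95% interval of an interaction extended 0.89 to either side, so a 2-fold difference between housings in the location effect was often not detectable.

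**Figure D5:**
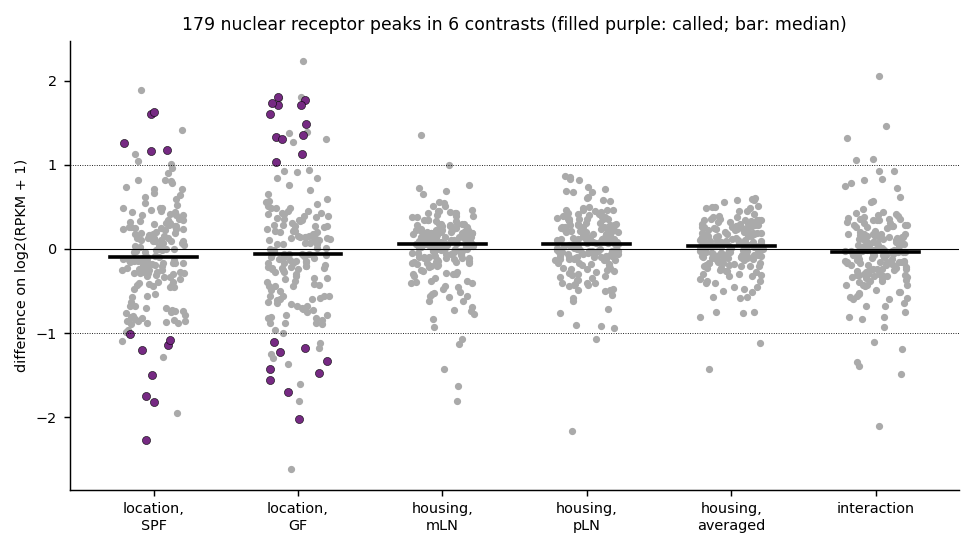
Difference on log2(RPKM + 1) (y axis) of the 179 nuclear receptor peaks in 6 contrasts (x axis), with called peaks in purple, a bar at the median and dotted lines at 2-fold. Called peaks number 13 and 21 for location in SPF and GF mice and 0 for the housing contrasts and the interaction.

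Taken over both directions, genes of the wider pathway were called at shares below or near the background (10.8% of all peaks in SPF and 13.2% in GF mice). Coactivators and corepressors that receptors recruit (18 genes, all with peaks, 132 peaks) had 5 DARs higher in mLN and 4 in pLN in SPF mice (6.82%), and 6 and 5 in GF mice (8.33%). Their median SPF difference was -0.09. A peak 66.29 kb upstream of Tbl1xr1, an exchange factor of corepressor complexes, was at 7.65 ± 3.02 RPKM in mLN-SPF and 37.3 ± 5.34 RPKM in pLN-SPF (-2.20, adjusted p = 0.00406), and in GF mice at -2.58 (adjusted p = 0.00188). An intron of Ncoa7, a coactivator gene, was higher in mLN (1.60 and 2.02 in SPF and GF mice, adjusted p = 0.0164 and 0.00741). That peak is 110 bases wide and held only 1 to 23 reads per library. A peak 25.83 kb upstream of Ppargc1a, the coactivator PGC-1 alpha, was lower in mLN (-1.39 and -1.19, adjusted p = 0.0129 and 0.0378). The SPF calls were lost for Ncoa7 by limma-voom (1.54, adjusted p = 0.0662) and without mLN-SPF replicate 1 (1.32, adjusted p = 0.0721) and for Ppargc1a without pLN-SPF replicate 2 (-1.38, adjusted p = 0.0513). In GF mice Ncoa7 was lost without pLN-GF replicate 1 (1.93, adjusted p = 0.0693), and Ppargc1a with a pseudocount of 5 (-0.98) and in 6 of the 11 fits that left out a library.

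Enzymes that make or clear receptor ligands (13 of 16 genes with peaks, 41 peaks) had 3 DARs higher in mLN and 1 in pLN in each housing (9.76%), with an SPF median of -0.04. A peak nearest to Dio2, the deiodinase that activates thyroid hormone, though 269.1 kb from it, was higher in mLN (1.45 in SPF, adjusted p = 0.0114, and 1.39 in GF mice, adjusted p = 0.0196). Hsd11b2, which inactivates glucocorticoids, had a peak 3.87 kb upstream that was higher in mLN of GF mice (1.48, adjusted p = 0.00316) and under 2-fold in SPF mice (0.91, adjusted p = 0.0259). Near Ch25h, the 25-hydroxylase of cholesterol, a peak had lower values in mLN-SPF (-1.10, adjusted p = 0.034), while an intron of the oxysterol hydroxylase Cyp7b1 read 47.9 ± 16.5 RPKM in mLN-SPF and 87.8 ± 13.3 RPKM in pLN-SPF (-0.90, adjusted p = 0.0136). The SPF call of Dio2 was lost without mLN-SPF replicate 3 (1.19, adjusted p = 0.0558) or pLN-SPF replicate 1 (1.31, adjusted p = 0.0505), its GF call when any of mLN-GF replicates 1 and 3 and the pLN-GF libraries was left out (1.19 to 1.60), that of Hsd11b2 without pLN-GF replicate 1 (1.26, adjusted p = 0.0525), and that of Ch25h with a pseudocount of 5 (-0.90) and without any mLN-SPF or pLN-SPF library but mLN-SPF replicate 2 (-1.13 to -1.01).

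Textbook target genes of the receptors (25 of 26 genes with peaks, 126 peaks) had 3 DARs higher in mLN and 6 in pLN in SPF mice (7.14%) and 14 and 2 in GF mice (12.7%), with medians of 0.03 and 0.01. Of all peaks 6.49% were higher in mLN and 4.27% in pLN in SPF mice, and 8.55% and 4.62% in GF mice. The GF counts rest on 2 pLN libraries. An intron of Zbtb16, a glucocorticoid and progesterone target, read 54.7 ± 16.4 RPKM in mLN-SPF and 15.7 ± 2.58 RPKM in pLN-SPF (1.71, adjusted p = 0.00581), with 2.90 in GF mice (adjusted p = 0.000399). Both calls held in all alternatives tried. Arntl, the clock gene that RORs activate and REV-ERBs repress, had an intronic peak at 0.84 in SPF (adjusted p = 0.0145) and 1.17 in GF mice (adjusted p = 0.00363), the latter called in all alternatives. Npas2, which encodes a partner of the Arntl protein, had a peak 1.89 kb upstream at 22.3 ± 8.4 RPKM in mLN-SPF and 43.8 ± 7.41 RPKM in pLN-SPF (a DAR, adjusted p = 0.0183), lost with a pseudocount of 5 (-0.88), by limma-voom (-0.88), and without mLN-SPF replicate 3 (-0.69) or pLN-SPF replicates 1 (adjusted p = 0.0609) or 3 (-0.88). An intron of Lpcat3, a liver X receptor target, was at -0.71 (adjusted p = 0.00977) in SPF mice and under 2-fold.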

How the data were processed

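Single-end ATAC-seq reads of 50 bases were aligned by the authors to mm10 (GRCm38) with STAR 2.5.3a and deduplicated with Picard. Broad peaks came from MACS2 on each replicate and were merged by the authors. The deposited table gives RPKM per peak and library. In the 11 columns used, 100% of values came out as whole reads (tolerance 0.02 reads). No shift of reads for transposase insertion is given in the sources used here. The log2 fold changes and adjusted p-values deposited by the authors for their own comparisons were not used, nor were the gene names of the table. The column of the second pLN-GF library was left out, since each of its 42434 entries is the average of the 5 remaining pLN columns. After 10 repeated entries were dropped, 42424 peaks remained.

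Peaks were assigned to the closest protein-coding TSS of GENCODE on GRCm38; 27% of peaks overlapped such a TSS, and 1.4% after a 100 kb shift. Location and housing were tested with limma 3.58.1 (R 4.3.3) on log2(RPKM + 1), fitting a mean for each of 4 groups (7 residual degrees of freedom), with Benjamini-Hochberg adjustment over all peaks; a DAR had an adjusted p under 0.05 and at least 2-fold. A fold change on this scale understates the change of weak peaks. The script was tested on simulated data. Whether the numbers pair the libraries could not be settled. Deviations from the group means correlated at -0.152 to 0.271 for same-numbered libraries and at -0.303 to 0.21 for others. Between mLN and pLN of SPF mice the correlations were 0.028, 0.271 and 0.229 for same numbers and -0.26 to 0.101 for others. With 2 or 3 libraries per group such deviations depend on each other. Genes, lists and tests were chosen with earlier results of these data known. Named were, per gene, housing and direction, the DAR of lowest adjusted p and the 10 largest SPF changes without overlap between nodes, then the 3 lowest p values where no DAR was found, and up to 4 peaks per pathway list. 1 peak named by this rule and 1 marker list are not reported here. Sequences come from the RefSeq GRCm38.p6 genome and promoter table, in which 36 of the 40 genes were found. Alternatives were pseudocounts of 0.25 and 5, a mean of at least 5 RPKM, quantile normalization, limma-voom on the recovered reads, the replicate number as a block, the adjusted p alone, peaks within 100 kb, the TSS of any biotype, only the 2 groups compared, and leaving out libraries. The limit of 100 kb and the TSS of any biotype change which peaks are counted and not the fit of a peak.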

Additional observations from a re-analysis of the deposited data

Results flagged for a closer look

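A peak 26.09 kb upstream of Ppara had its nodes apart in opposite directions in the housings. It read 42.44, 46.86 and 28.83 RPKM in mLN-SPF and 48.59, 52.15 and 56.46 RPKM in pLN-SPF, a location difference of -0.43, and 64.77, 79.12 and 52.27 RPKM in mLN-GF and 27.13 and 52.17 RPKM in pLN-GF, a difference of 0.76. The limma interaction was -1.19 with an unadjusted p of 0.00574 and an adjusted p of 1, so it is no call. It was the 1 such peak among 179 and 109 of all 42424 peaks had the pattern. The peak is 110 bases wide and held 9 to 56 reads per library.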

How the results depend on the processing

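No nuclear receptor DAR changed direction when 1 library was left out. Which node had more of them did depend on the setting. Main counts were 5 (higher in mLN) and 8 (higher in pLN) in SPF mice and 12 and 9 in GF mice. With the TSS of any biotype the SPF counts were 5 and 0. The GF counts were 15 and 16 with the replicate block and 12 and 14 without both mLN libraries numbered 2. Under quantile normalization they were 10 and 11. In the other settings the order was kept or the counts were equal. Location counts of nuclear receptor peaks moved by over 1.5 times as follows. With limma-voom on recovered reads 13 and 15 peaks were higher in pLN of SPF and GF mice, and 1 peak was called for housing in pLN. The adjusted p alone gave 14 higher in pLN of SPF mice. Within 100 kb of the TSS there were 3 and 4 in SPF mice and 4 higher in pLN of GF mice, from fewer peaks, and with the TSS of any biotype 0 and 1 were higher in pLN of SPF and GF mice. Without both mLN libraries numbered 2 there were 16 and 14 higher in pLN. With only the 2 groups compared 3 were higher in mLN of SPF mice. Leaving out 1 library at a time gave 2 to 6 and 3 to 16 in SPF mice and 4 to 14 and 0 to 12 in GF mice. With the replicate block the 4 counts were 6, 10, 15 and 16, the last beyond 1.5 times. Whether the numbers pair the libraries is not known. The cause of these moves was not tested. Of 88 location counts over all settings 64 stayed within 1.5 times and 24 moved further; of 86 for housing or interaction, nearly all 0, 85 stayed and 1 moved. Weak peaks limit precision: 3 nuclear receptor peaks had 0 reads in some library, and the median 95% interval of a location difference extended 0.59 in SPF and 0.66 in GF mice to either side.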
